A study of Mus musculus with 24 samples.

Results

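The nuclear-encoded subunits of respiratory complexes II to V, together with cytochrome c, were examined in cultured mouse muscle that had been exercised with light. Members were the genes named Sdha to Sdhd, Uqcr, Cyc1, Cycs, Cox4 to Cox8, or Atp5 that did not carry a pseudogene name and had a mean of at least 1 transcript per M (TPM) over all 24 libraries. Of 63 names that matched, 12 were pseudogene names and 6 lay under this minimum, which left 45 members of the 56941 genes in the tables. They comprised 4 subunits of complex II, 9 of complex III, cytochrome c, 14 of complex IV, and 17 of complex V. The mean over all libraries of the 6 names under the minimum was highest for Cox6c2 at 0.568 TPM, and Cox4i2, the isoform that replaces Cox4i1 in some tissues, was at 0.218 TPM, with at most 1.19 TPM in a single library. All 45 members passed the filter on low counts and were tested.

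RNA was measured by bulk sequencing (RNA-seq) in 2D tissues of C2C12, a mouse myoblast line whose cells fuse into muscle fibers. Its cells carried ChR2::tdTomato, a blue light-gated ion channel joined to a fluorescent protein, through which light can trigger contraction. The paper reports spontaneous twitching in all conditions, so control tissues were unstimulated but not necessarily unexercised. For the likeness of 10 Hz tissues to control, the paper proposes that near-tetanic contraction with smaller displacements may wear fibers less. As an alternative, it proposes that tissues at 10 Hz may have fatigued and not contracted for part of the training. Tissues received light for 30 min each day over about 2 weeks at 1, 4, or 10 Hz, and control tissues carried the same transgene and received none. Each condition comprised 6 libraries. All groups were differentiated in medium that held IGF-1 at 50 ng/mL and horse serum at 10%. The replicates were separate wells of a single engineered line in one experiment, so p-values measure the spread between wells. A single cell line supplies no vessels, nerve, or immune cells.

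The respiratory chain passes electrons from nutrients to oxygen and stores the energy released as a proton gradient across the inner mitochondrial membrane. Complex II (succinate dehydrogenase) feeds electrons from succinate into ubiquinone, complex III hands them to cytochrome c, complex IV (cytochrome c oxidase) reduces oxygen, and complex V (ATP synthase) uses the gradient to make ATP. Most subunits are encoded in the nucleus, whereas a few core subunits of complexes III, IV, and V are encoded by mitochondrial DNA. Mature skeletal and heart muscle exchange several widely expressed subunits of complex IV for muscle isoforms, namely Cox6a2, Cox7a1, and Cox8b in the mouse.

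Total counts per library ranged from 4.09 to 15.2 M (mega). They were 4.19 to 7.65 M in control, 4.09 to 15.2 M at 1 Hz, 7.55 to 11.5 M at 4 Hz, and 5.41 to 12.1 M at 10 Hz. Control and 4 Hz libraries thus barely overlapped in depth. Muscle fiber markers were abundant throughout, with Acta1 (skeletal actin) between 2560.4 and 7198 TPM in single libraries. Ptprc, a leukocyte marker, was at most 0.0317 TPM, and Pecam1, an endothelial marker, was at most 0.735 TPM, and adipocyte markers summed to at most 1.07 TPM. The markers of the members were all present, since Sdha, Uqcrc1, Cox4i1, and Cox6a2 summed to between 1274 and 1901 TPM. Small RNAs without a poly(A) tail, a measure of library composition, took 98.8 to 170.1 counts per M of the library total in control, 15.03 to 70.8 at 1 Hz, 18.3 to 51.1 at 4 Hz, and 38.4 to 273 at 10 Hz. Every 1 and 4 Hz library lay below every control library in this share, so its effect and that of stimulation cannot be told apart in those comparisons.

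Control levels of the members spanned a wide range of TPM, a scale on which levels of different genes can be compared because it is per transcript length. The members together took 2.25% of the TPM of a control library on average, of which complex V held 46.4%, complex IV 31.5%, complex III 17.8%, complex II 3.44%, and cytochrome c 0.778%. Atp5b, the catalytic subunit of the ATP synthase head, was highest at 2071 ± 50.2 TPM (SD, n = 6), and its lowest control library lay above every control library of each other member. Uqcrh, the hinge subunit of complex III, followed at 1068 ± 67.4 TPM, within the spread of Atp5md at 1001 ± 142 TPM (SD, n = 6 each). Sdha, which holds the site of succinate oxidation, was next to last at 115 ± 16.5 TPM. The muscle isoforms were low, with Cox8b at 192 ± 17.8 TPM, Cox6a2 at 123 ± 6.27 TPM, and Cox7a1, the lowest member, at 82.7 ± 11.5 TPM (SD, n = 6 each). The ranges of Sdha and Cox7a1 overlapped.

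**Figure D1:**
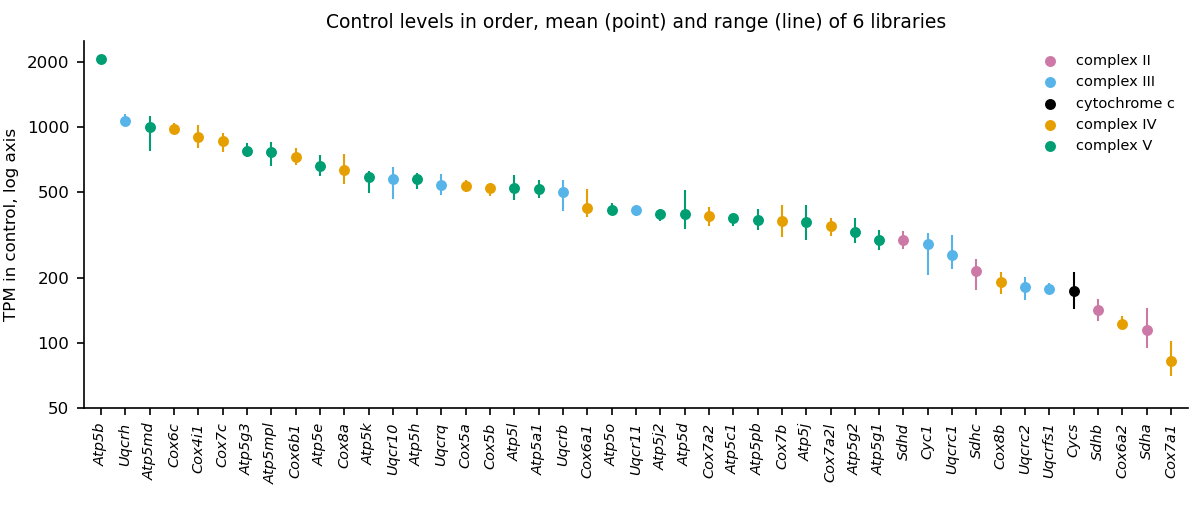
Level of each of the 45 members in control on a log axis of TPM, ordered from highest to lowest, with the mean as a point and the range of the 6 control libraries as a line, colored by complex. Atp5b stands above all others with a mean of 2071 TPM, most members lie between 100 and 1000 TPM, and Cox7a1 is lowest at 82.7 TPM.

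Each frequency was then compared with control, to ask how the expression of the chain differed with the frequency of stimulation. Genes were called at a Benjamini-Hochberg (BH) adjusted p below 0.05 in edgeR's quasi-likelihood test over all 13318 genes tested. At 4 Hz, 36 of the 45 members were higher than in control and none lower, against 19.2% of all genes tested called higher and 20.2% called lower. At 1 Hz, 11 members were higher and none lower, against 18.1% and 17.3% of all genes. At 10 Hz, 7 members were higher and none lower, against 2.67% and 2.22% of all genes. The median log2 fold change of the members was 0.44 at 4 Hz, 0.13 at 1 Hz, and 0.21 at 10 Hz, where the median of all genes tested was -0.01 at each frequency. On the log2(TPM + 1) scale the member medians were 0.23, 0.066, and 0.060, where those of all genes were -0.16, -0.060, and -0.091, and with offsets for GC content and transcript length they were 0.37, 0.16, and 0.12. With a log2 fold change above 0.5 required as well, 13 members were called at 4 Hz (10.5% of all genes), 4 at 1 Hz (9.34%), and 0 at 10 Hz (1.24%). All 6 libraries lay above all 6 control libraries for 25 members at 4 Hz (8.68% of all genes), 3 at 1 Hz (7.22%), and 3 at 10 Hz (1.28%). The 3 comparisons share the control libraries, and the fold at 4 Hz was the largest of the 3 in 42 members.

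**Figure D2:**
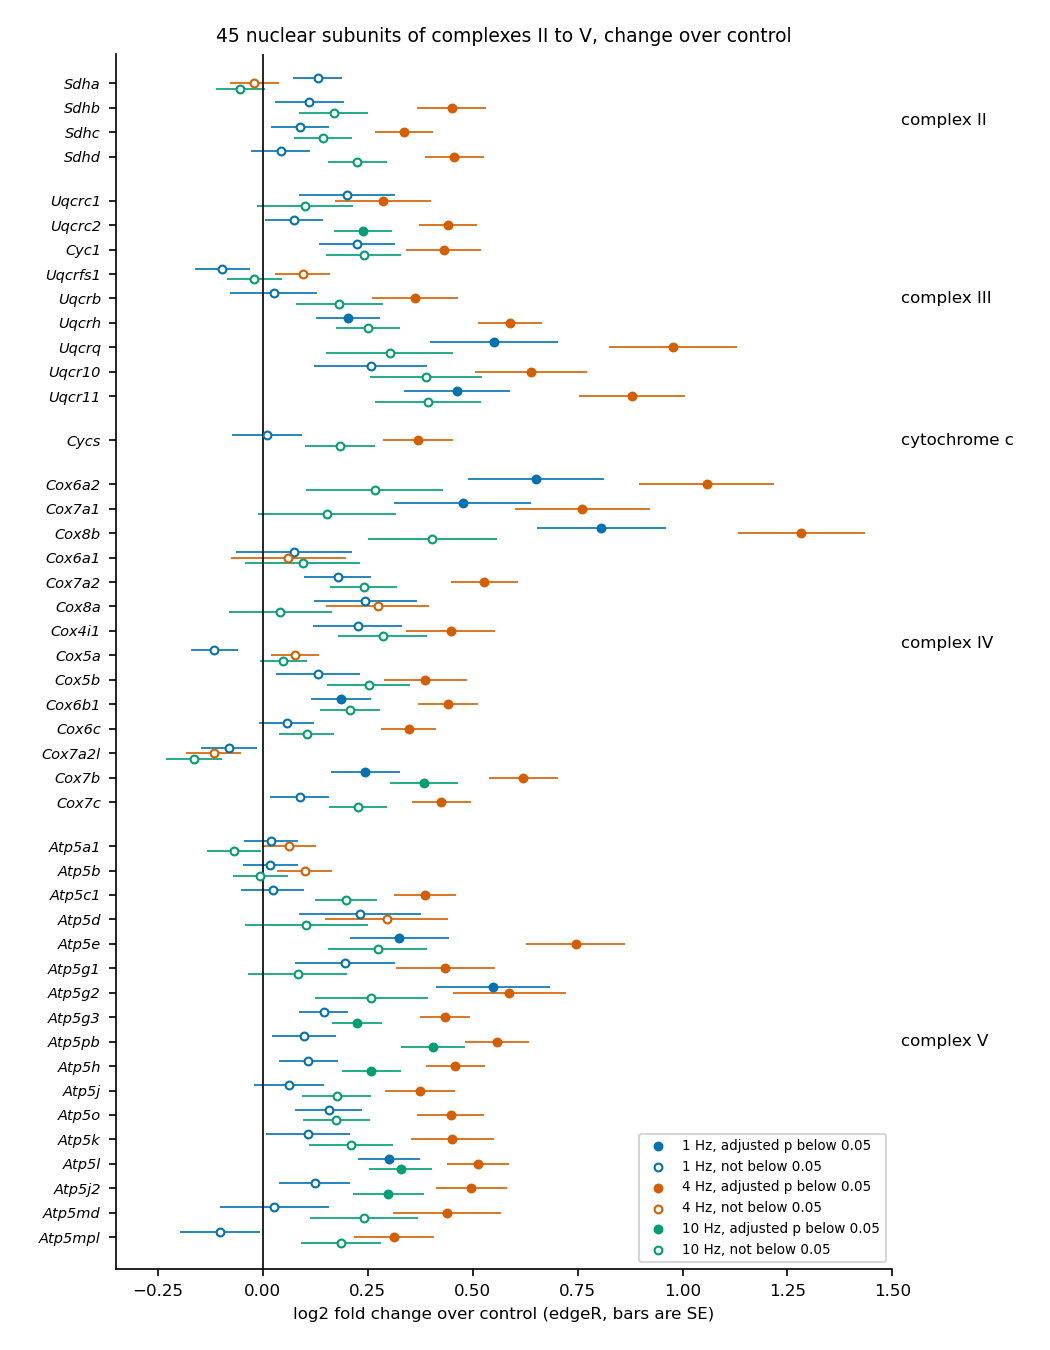
Log2 fold change over control of each of the 45 members at 1, 4, and 10 Hz, with bars of 1 SE from the edgeR fit of 6 libraries per condition. Filled points have an adjusted p below 0.05, and genes are grouped by complex. Filled points are found for 36 members at 4 Hz, 11 at 1 Hz, and 7 at 10 Hz, all to the right of zero, and Cox8b reaches furthest at 1.28.

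The small RNA share given above and the summed markers of muscle fibers also separated the 1 and 4 Hz libraries from control. Both overlapped between 1 and 4 Hz. Of 10 markers of differentiated fibers, 9 were higher at 1 Hz, 9 at 4 Hz, and 2 at 10 Hz, and their summed level was 8529 to 10917 TPM in control, 13665 to 17464 TPM at 1 Hz, 13637 to 19644 TPM at 4 Hz, and 8812 to 14697 TPM at 10 Hz. Among 4 fibroblast markers, 3 were higher at 1 Hz and 0 at 4 and 10 Hz, and their summed level was 102 to 298 TPM in control, 193 to 292 TPM at 1 Hz, 149.6 to 227 TPM at 4 Hz, and 125 to 168 TPM at 10 Hz. Among 6 myoblast and cycling markers, 1 was higher and 1 lower at 1 Hz, 3 were higher and 2 lower at 4 Hz, and none was called at 10 Hz, with summed levels of 39.8 to 62.2, 26.6 to 42.7, and 43.1 to 51.8 TPM in control, 4 Hz, and 10 Hz and of 37.7 to 49.1 TPM at 1 Hz. The part of these markers in the results was not tested, and in bulk RNA fewer cells of a type and less RNA per cell cannot be told apart. On the log2(TPM + 1) scale, limma called 25 members higher and 3 lower (Atp5b, Cox7a2l, and Sdha) at 4 Hz, 6 higher and 3 lower at 1 Hz, and 0 higher and 1 lower at 10 Hz. Of all 13627 genes in that fit, 1205 were higher and 3975 lower at 4 Hz, 1533 and 2240 at 1 Hz, and 151 and 590 at 10 Hz.

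With the small RNA share as a covariate, 0 of the 11 members at 1 Hz, 11 of the 36 at 4 Hz, and all 7 at 10 Hz stayed called. The same fit called few genes of any kind at 1 and 4 Hz, namely 1 of all 13318 genes higher and 0 lower at 1 Hz and 180 higher and 128 lower at 4 Hz, beside 304 and 314 at 10 Hz. At an unadjusted p below 0.05 in edgeR, 3 members at 1 Hz and 30 at 4 Hz were higher and none lower, among 1428 and 2343 genes. The member median in that fit was 0.079 at 1 Hz, 0.36 at 4 Hz, and 0.21 at 10 Hz. Log2 fold changes at 1 Hz were then 0.62 for Cox6a2, 0.41 for Cox7a1, 0.33 for Cox8b, 0.30 for Uqcrq, and 0.27 for Atp5g2, with edgeR adjusted p-values of 0.395, 0.6246, 0.644, 0.727, and 0.71. At 4 Hz the calls of Uqcrq (0.74), Cox7a1 (0.70), Cox4i1 (0.45), Cox7a2 (0.45), and Uqcrc1 (0.21) were lost, with edgeR adjusted p-values of 0.101, 0.151, 0.167, 0.058, and 0.6.

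Complex II links the citric acid cycle to the chain. At 4 Hz, 3 of its 4 subunits rose (19.2% of all genes tested), while none was called at 1 or 10 Hz (18.1% and 2.67% called higher). Sdha (ENSMUSG00000021577, chromosome 13, 74469359 to 74498436, 15 exons, positions in build GRCm39), the flavoprotein, was the exception. It was at 179.8, 203, and 211 CPM in control, 213, 218, and 224 CPM at 1 Hz, 179.6, 199, and 205 CPM at 4 Hz, and 181, 188, and 211 CPM at 10 Hz (the lowest, the median, and the highest of 6 libraries, in counts per M of scaled library size, CPM). The groups of 4 Hz and control overlapped, whereas all 1 Hz libraries lay above all control libraries. Relative to control, Sdha differed on the log2 scale by 0.13 ± 0.059 (SE, adjusted p = 0.0827 in edgeR) at 1 Hz, -0.020 ± 0.059 (SE, adjusted p = 0.814 in edgeR) at 4 Hz, and -0.053 ± 0.059 (SE, adjusted p = 0.661 in edgeR) at 10 Hz, none past the threshold. At 1 Hz Sdha was called higher with DESeq2 (0.13, adjusted p = 0.0423). It was also called with offsets for GC content and transcript length (0.17, edgeR adjusted p = 0.0157). On the TPM scale its 1 Hz value was -0.020 and not called. Sdhb, which carries the iron-sulfur clusters, rose at 4 Hz, with a log2 fold of 0.45 ± 0.082 (SE, adjusted p = 0.000126 in edgeR). The membrane anchors Sdhc and Sdhd rose by 0.34 ± 0.068 (SE, adjusted p = 0.000386 in edgeR) and 0.46 ± 0.070 (SE, adjusted p = 1.88e-05 in edgeR). No 4 Hz library of these 3 genes overlapped control.

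Complex III had 8 of its 9 nuclear subunits higher at 4 Hz (19.2% of all genes tested), 3 at 1 Hz (18.1%), and 1 at 10 Hz (2.67%). Its larger changes lay in the small subunits that surround the catalytic core. Uqcrq (ENSMUSG00000044894, chromosome 11, 53318749 to 53322047, 2 exons) was at 109.6, 124, and 142 CPM in control, 125, 176, and 258 CPM at 1 Hz, 194, 236, and 341 CPM at 4 Hz, and 123, 152, and 195 CPM at 10 Hz. All 4 Hz libraries lay above control, the 1 Hz libraries overlapped it, and the log2 fold change was 0.98 ± 0.15 (SE, adjusted p = 2.16e-05 in edgeR) at 4 Hz, 0.55 ± 0.15 (SE, adjusted p = 0.00627 in edgeR) at 1 Hz, and 0.30 ± 0.15 (SE, adjusted p = 0.258 in edgeR) at 10 Hz. Uqcr11 (ENSMUSG00000020163, chromosome 10, 80236542 to 80242676, 3 exons) was at 76.6, 79.2, and 89.1 CPM in control, 88.5, 103, and 149.9 CPM at 1 Hz, 119, 138, and 199.6 CPM at 4 Hz, and 88.4, 108, and 119 CPM at 10 Hz. It rose by 0.88 ± 0.13 (SE, adjusted p = 8.13e-06 in edgeR) at 4 Hz and by 0.46 ± 0.13 (SE, adjusted p = 0.00586 in edgeR) at 1 Hz. Uqcrh rose by 0.59 ± 0.076 (SE, adjusted p = 2.34e-06 in edgeR) at 4 Hz and by 0.20 ± 0.076 (SE, adjusted p = 0.0384 in edgeR) at 1 Hz, and Uqcr10 and Uqcrb rose at 4 Hz by 0.64 ± 0.13 and 0.36 ± 0.10 (SE, edgeR adjusted p = 0.000527 and 0.00686). The median fold of these 5 small subunits at 4 Hz was 0.64, and that of the 4 core and redox subunits was 0.36.

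Among the core and redox subunits of complex III, Uqcrc1 (core protein 1, ENSMUSG00000025651, chromosome 9, 108765701 to 108778710, 13 exons) was at 171, 189, and 246 CPM in control, 191, 224, and 266 CPM at 1 Hz, 189, 235, and 286 CPM at 4 Hz, and 173, 211, and 249 CPM at 10 Hz. Control and 4 Hz libraries overlapped, and Uqcrc1 was called at 4 Hz with 0.29 ± 0.11 (SE, adjusted p = 0.0477 in edgeR). This call was lost without any of control replicates 1, 2, 3, 5, and 6 or 4 Hz replicates 1, 2, and 6, with log2 fold changes of 0.24 to 0.31 and adjusted p-values of 0.0527 to 0.114. Uqcrc2 (core protein 2) rose by 0.44 ± 0.069 (SE, adjusted p = 2.31e-05 in edgeR) at 4 Hz and was the complex III subunit called at 10 Hz, with 0.24 ± 0.069 (SE, adjusted p = 0.0422 in edgeR). Cyc1, the heme subunit cytochrome c1, rose by 0.43 ± 0.090 (SE, adjusted p = 0.0005 in edgeR) at 4 Hz. Uqcrfs1, the Rieske iron-sulfur protein, was not called at any frequency, and its log2 fold change was 0.10 ± 0.065 (SE, adjusted p = 0.249 in edgeR) at 4 Hz and -0.10 ± 0.066 (SE, adjusted p = 0.264 in edgeR) at 1 Hz. With total count scaling and on all TPM scales Uqcrfs1 was called lower at 1 Hz. Cytochrome c itself (Cycs), the mobile carrier between complexes III and IV, rose by 0.37 ± 0.083 (SE, adjusted p = 0.000984 in edgeR) at 4 Hz, with overlap of the libraries, and had a fold of 0.011 ± 0.084 (SE, adjusted p = 0.935 in edgeR) at 1 Hz and 0.18 ± 0.083 (SE, adjusted p = 0.206 in edgeR) at 10 Hz.

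Complex IV had 10 of 14 nuclear subunits higher at 4 Hz (19.2% of all genes tested), 5 at 1 Hz (18.1%), and 1 at 10 Hz (2.67%). Its muscle isoforms held the largest changes of all members at 4 Hz together with Uqcrq and Uqcr11. Cox8b (ENSMUSG00000025488, chromosome 7, 140477069 to 140480359, 2 exons) was at 22.0, 26.1, and 31.2 CPM in control, 32.4, 46.9, and 58.1 CPM at 1 Hz, 46.9, 61.8, and 88.9 CPM at 4 Hz, and 30.0, 34.3, and 42.9 CPM at 10 Hz. Every library at 1 Hz and at 4 Hz lay above every control library, and the log2 fold change was 0.81 ± 0.15 (SE, adjusted p = 0.000267 in edgeR) at 1 Hz, 1.28 ± 0.15 (SE, adjusted p = 7.91e-07 in edgeR) at 4 Hz, and 0.40 ± 0.15 (SE, adjusted p = 0.124 in edgeR) at 10 Hz. Cox6a2 (ENSMUSG00000030785, chromosome 7, 127804607 to 127805559, 3 exons) was at 39.4, 44.0, and 48.4 CPM in control, 45.6, 68.4, and 93.9 CPM at 1 Hz, 66.4, 88.1, and 128 CPM at 4 Hz, and 39.4, 53.4, and 64.9 CPM at 10 Hz. It was separate from control at 4 Hz only among the frequencies, and its log2 fold change was 1.06 ± 0.16 (SE, adjusted p = 1.68e-05 in edgeR) at 4 Hz, 0.65 ± 0.16 (SE, adjusted p = 0.00295 in edgeR) at 1 Hz, and 0.27 ± 0.16 (SE, adjusted p = 0.375 in edgeR) at 10 Hz. Cox7a1 (ENSMUSG00000074218, chromosome 7, 29883569 to 29885503, 4 exons) was at 11.4, 12.7, and 16.8 CPM in control, 11.8, 17.6, and 27.3 CPM at 1 Hz, 15.6, 21.9, and 28.0 CPM at 4 Hz, and 12.7, 14.6, and 17.6 CPM at 10 Hz. Its libraries overlapped control at every frequency, and its log2 fold change was 0.76 ± 0.16 (SE, adjusted p = 0.000539 in edgeR) at 4 Hz, 0.48 ± 0.16 (SE, adjusted p = 0.0242 in edgeR) at 1 Hz, and 0.15 ± 0.16 (SE, adjusted p = 0.645 in edgeR) at 10 Hz. The call of Cox7a1 at 1 Hz was lost without 1 Hz replicate 4 (log2 fold change 0.43, adjusted p = 0.059) or 1 Hz replicate 6 (0.33, adjusted p = 0.111).

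The widely expressed partners of these isoforms fill the same places in the complex in most tissues. Cox6a1 (ENSMUSG00000041697, chromosome 5, 115483701 to 115487050, 3 exons) was at 103, 115, and 149.8 CPM in control, 100.5, 127, and 152 CPM at 1 Hz, 89.4, 127, and 152 CPM at 4 Hz, and 97.0, 127, and 159.8 CPM at 10 Hz. All 4 groups overlapped, and the log2 fold change was 0.062 ± 0.14 (SE, adjusted p = 0.748 in edgeR) at 4 Hz and 0.075 ± 0.14 (SE, adjusted p = 0.701 in edgeR) at 1 Hz, values whose sign turned with total count scaling and on the TPM scale. Cox8a (ENSMUSG00000035885, chromosome 19, 7192515 to 7194997, 2 exons) was at 145, 168, and 206 CPM in control, 171, 197, and 233 CPM at 1 Hz, 161, 198, and 259 CPM at 4 Hz, and 145, 169, and 212 CPM at 10 Hz. It too overlapped control, with a log2 fold change of 0.27 ± 0.12 (SE, adjusted p = 0.0763 in edgeR) at 4 Hz and 0.24 ± 0.12 (SE, adjusted p = 0.123 in edgeR) at 1 Hz. Cox8a was called higher at 4 Hz without the filter on low counts and with a replicate block. It was also called without control replicate 4 or 4 Hz replicate 3 or 5. These folds were 0.26 to 0.34 (edgeR adjusted p = 0.0296 to 0.0497). With offsets for GC content and transcript length it was called at 1 Hz (0.16, edgeR adjusted p = 0.0161). Cox7a2 (ENSMUSG00000032330, chromosome 9, 79653049 to 79667162, 4 exons) differed from these, at 115, 131, and 149 CPM in control, 135, 149, and 169.6 CPM at 1 Hz, 168, 190.4, and 211 CPM at 4 Hz, and 131, 159, and 175 CPM at 10 Hz. Its 4 Hz libraries lay above control, and it rose by 0.53 ± 0.080 (SE, adjusted p = 1.51e-05 in edgeR), while the fold at 1 Hz was 0.18 ± 0.080 (SE, adjusted p = 0.0828 in edgeR).

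**Figure D3:**
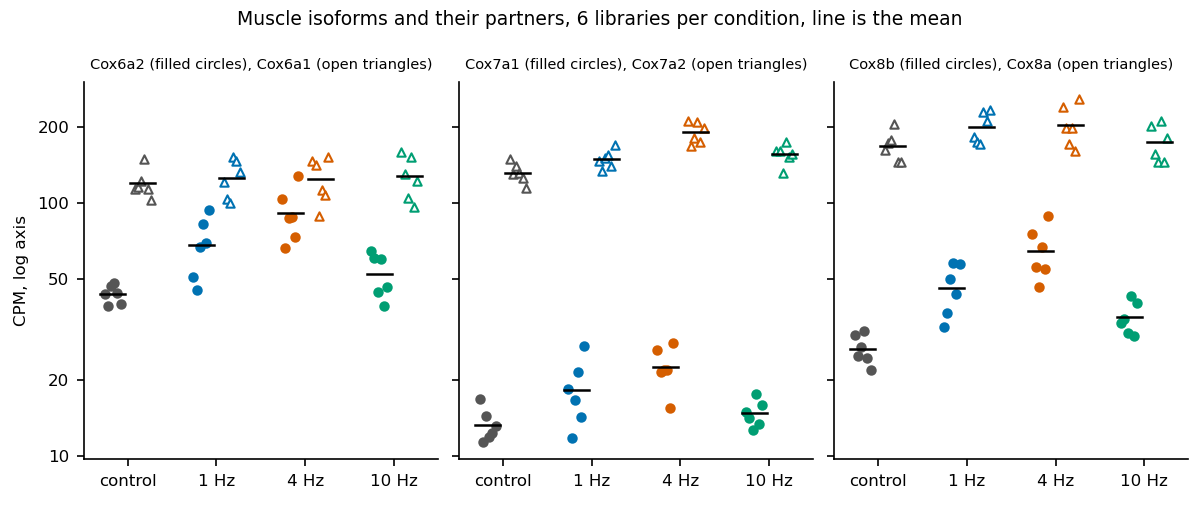
CPM in each library on a log axis for the 3 muscle isoforms (filled circles) and their widely expressed partners (open triangles), with 6 libraries per condition and a line at the mean. The muscle isoforms are higher at 1 and 4 Hz than in control, from a mean of 26.6 CPM in control to 65.04 CPM at 4 Hz for Cox8b, whereas Cox6a1 has means of 119.9 CPM in control and 125 CPM at 4 Hz.

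Promoters are shown to set the muscle isoforms beside their partners. The RefSeq promoter table held 35 of the 45 members, among them Cox7a1 and Cox8b with their partners, and the stretches below run from 250 bases before to 30 bases after the annotated start, 5′ to 3′ in the direction of the gene, in build GRCm38.p6. Motif letters searched on both strands were NRF1 GCGCANGCG, ETS/GABPA CCGGAAG, YY1 AANATGGC, ERR AAGGTCA, MEF2 CTANNNNTA, and E-box CAGCTG, and matches are in capitals. The muscle isoform Cox7a1 (chr7:30183921-30184200, plus strand) held a MEF2 match 184 bases before the start, and Cox8b (chr7:140900417-140900696, minus strand) held E-box matches at 19 bases before and 17 bases after it. The partner Cox7a2 (chr9:79759824-79760103, minus strand) held a MEF2 match 28 bases before the start, and Cox8a (chr19:7217587-7217866, minus strand) held an ETS match 5 bases before it and another beyond the stretch shown.
Cox7a1: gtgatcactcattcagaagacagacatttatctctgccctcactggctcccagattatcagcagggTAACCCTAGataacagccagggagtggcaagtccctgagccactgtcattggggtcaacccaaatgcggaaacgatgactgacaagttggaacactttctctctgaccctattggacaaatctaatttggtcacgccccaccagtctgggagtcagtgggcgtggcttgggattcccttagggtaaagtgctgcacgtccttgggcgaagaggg
Cox8b: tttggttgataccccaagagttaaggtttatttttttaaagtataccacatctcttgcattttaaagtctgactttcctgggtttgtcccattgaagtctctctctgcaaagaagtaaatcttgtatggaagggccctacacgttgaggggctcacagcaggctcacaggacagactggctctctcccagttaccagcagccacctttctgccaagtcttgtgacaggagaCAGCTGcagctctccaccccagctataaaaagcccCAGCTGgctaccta
Cox7a2: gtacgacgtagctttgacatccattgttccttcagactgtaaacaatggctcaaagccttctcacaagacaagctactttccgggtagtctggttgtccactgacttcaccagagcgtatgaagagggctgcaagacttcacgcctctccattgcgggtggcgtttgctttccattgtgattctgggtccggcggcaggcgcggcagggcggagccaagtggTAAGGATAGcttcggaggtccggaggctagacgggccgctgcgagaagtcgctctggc
Cox8a: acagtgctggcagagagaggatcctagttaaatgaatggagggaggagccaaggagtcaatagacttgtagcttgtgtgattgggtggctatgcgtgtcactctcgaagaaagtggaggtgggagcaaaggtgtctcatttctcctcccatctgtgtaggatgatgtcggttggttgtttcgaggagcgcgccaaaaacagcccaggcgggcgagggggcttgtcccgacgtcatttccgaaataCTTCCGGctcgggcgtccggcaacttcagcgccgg
A MEF2 match was present in a muscle isoform and in a partner, and the E-box in Cox8b alone of these 4. MEF2 letters occurred in 20.0% of the matched members (7 of 35) and in 21.04% of all 32851 promoters of the table, and the E-box in 5.71% (2 of 35) and 16.3%. NRF1 letters, known from promoters of respiratory genes, occurred in 37.1% of the members (13 of 35) and in 6.25% of all promoters, and ETS/GABPA letters in 37.1% and 8.86%. YY1 letters were in 14.3% and 6.05%, and ERR letters in 14.3% and 4.72%. A match describes letters only. The MEF2 letters accept any base at each N, so a match to them need not be a site that MEF2 binds. Sdhc, Cyc1, Uqcrb, Uqcrc2, Uqcrq, Cox4i1, Cox6a2, Cox6c, Atp5a1, and Atp5mpl were not matched in the table.

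The unequal change was then tested as the log2 ratio of CPM of each muscle isoform to its partner in each library, with 2-sided exact permutation tests and BH adjustment over 18 tests (3 pairs in 6 comparisons). A p of 0.00216 is the smallest that 6 against 6 libraries can give. The ratio of Cox6a2 to Cox6a1 was -1.44 ± 0.12 in control, -0.91 ± 0.31 at 1 Hz, -0.46 ± 0.36 at 4 Hz, and -1.27 ± 0.10 at 10 Hz (SD, n = 6 each). It was higher than control by 0.53 (exact permutation p = 0.00216, adjusted p = 0.00779) at 1 Hz and by 0.97 (exact permutation p = 0.00216, adjusted p = 0.00779) at 4 Hz, with no overlap of libraries at either frequency. At 10 Hz it was higher by 0.16 (exact permutation p = 0.0195, adjusted p = 0.0351), with overlap. As a share of the pair's TPM, Cox6a2 went from 22.5 ± 1.33% in control to 36.7 ± 5.62% at 4 Hz (SD, n = 6 each).

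The ratio of Cox8b to Cox8a was -2.64 ± 0.13 in control, -2.12 ± 0.25 at 1 Hz, -1.66 ± 0.14 at 4 Hz, and -2.28 ± 0.16 at 10 Hz (SD, n = 6 each). The difference from control was 0.52 (exact permutation p = 0.00433, adjusted p = 0.013) at 1 Hz, 0.98 (exact permutation p = 0.00216, adjusted p = 0.00779) at 4 Hz, and 0.36 (exact permutation p = 0.00649, adjusted p = 0.0146) at 10 Hz, and the libraries were separate from control at 4 Hz. Cox8b made up 23.4 ± 1.77% of the pair's TPM in control and 37.6 ± 1.87% at 4 Hz (SD, n = 6 each). For Cox7a1 over Cox7a2 the ratio was -3.27 ± 0.16 in control, -3.04 ± 0.31 at 1 Hz, -3.07 ± 0.23 at 4 Hz, and -3.36 ± 0.089 at 10 Hz (SD, n = 6 each). No difference from control passed the test for this pair, with 0.23 (exact permutation p = 0.145, adjusted p = 0.174) at 1 Hz, 0.20 (exact permutation p = 0.11, adjusted p = 0.142) at 4 Hz, and -0.090 (exact permutation p = 0.247, adjusted p = 0.261) at 10 Hz, and without 4 Hz replicate 5 the difference at 4 Hz was 0.28 (exact permutation, adjusted p = 0.0325). Without any of 10 Hz replicates 1 to 5, the difference of Cox6a2 over Cox6a1 at 10 Hz was 0.13 to 0.17 and lost its call (exact permutation, adjusted p = 0.0506 to 0.0812).

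**Figure D4:**
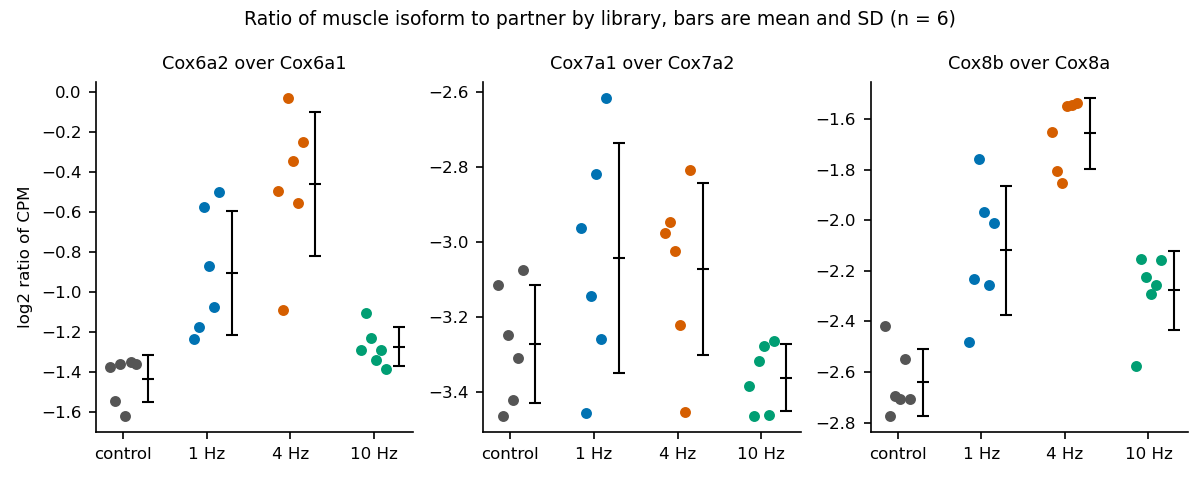
Log2 ratio of CPM of each muscle isoform to its partner in each library, with the mean and SD of 6 libraries per condition beside the points, and a separate scale in each panel. The ratio for Cox6a2 rises from a mean of -1.44 in control to -0.46 at 4 Hz and that for Cox8b from -2.64 to -1.66, while the 4 Hz and control points of Cox7a1 over Cox7a2 overlap.

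Of the other 8 subunits of complex IV, 6 rose at 4 Hz. Cox4i1 (ENSMUSG00000031818, chromosome 8, 121391505 to 121400950, 5 exons), the largest nuclear subunit, was at 308, 357, and 418 CPM in control, 370.4, 417, and 489 CPM at 1 Hz, 391, 475, and 591 CPM at 4 Hz, and 357, 432, and 532 CPM at 10 Hz. The libraries overlapped control, and it rose by 0.45 ± 0.11 (SE, adjusted p = 0.00163 in edgeR) at 4 Hz, with folds of 0.23 ± 0.11 (SE, adjusted p = 0.0992 in edgeR) at 1 Hz and 0.29 ± 0.11 (SE, adjusted p = 0.116 in edgeR) at 10 Hz. Cox7b (ENSMUSG00000031231, chromosome X, 105055638 to 105066240, 3 exons), a small subunit, was at 137, 149.8, and 197 CPM in control, 171, 186, and 209.5 CPM at 1 Hz, 216, 248, and 261 CPM at 4 Hz, and 178, 209, and 228 CPM at 10 Hz. It was called at all 3 frequencies, by 0.25 ± 0.081 (SE, adjusted p = 0.0206 in edgeR) at 1 Hz, 0.62 ± 0.081 (SE, adjusted p = 2.71e-06 in edgeR) at 4 Hz, and 0.38 ± 0.081 (SE, adjusted p = 0.00626 in edgeR) at 10 Hz. Atp5l of complex V was the other member called at all 3. The 10 Hz call of Cox7b was lost on the log2(TPM + 1) scale (0.28, limma adjusted p = 0.108). It was also lost with offsets for GC content and transcript length (0.24, edgeR adjusted p = 0.0935). That of Atp5l was lost in the same fits (0.16, limma adjusted p = 0.165, and 0.17, edgeR adjusted p = 0.108). Cox6b1, Cox7c, Cox5b, and Cox6c rose at 4 Hz by 0.44, 0.43, 0.39, and 0.35 (edgeR adjusted p = 3.21e-05, 3.64e-05, 0.00291, and 0.00018). Cox5b shares sequence with the listed copy Cox5b-ps, which took 3.30 to 11.9% of the counts of the pair, so its level was uncertain by that share. Cox5a and Cox7a2l, a factor that joins complexes III and IV, were not called at 4 Hz, with folds of 0.077 ± 0.057 (SE, adjusted p = 0.289 in edgeR) and -0.12 ± 0.066 (SE, adjusted p = 0.164 in edgeR), and Cox7a2l was called lower there with total count scaling and on the TPM scale. In those settings Cox5a was called lower at 1 Hz.

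Complex V had 14 of 17 nuclear subunits higher at 4 Hz, 3 at 1 Hz, and 5 at 10 Hz. Of all genes tested, 19.2%, 18.1%, and 2.67% were called higher at these frequencies. In the catalytic head, the main subunits Atp5a1 and Atp5b were not called, with folds at 4 Hz of 0.063 ± 0.064 (SE, adjusted p = 0.46 in edgeR) and 0.10 ± 0.065 (SE, adjusted p = 0.225 in edgeR), and in the central stalk, which turns inside it, Atp5d was not called with 0.30 ± 0.15 (SE, adjusted p = 0.108 in edgeR). The other central stalk subunits, Atp5c1 and Atp5e, rose by 0.39 ± 0.074 (SE, adjusted p = 0.000214 in edgeR) and 0.75 ± 0.12 (SE, adjusted p = 2.64e-05 in edgeR). Atp5e was also higher at 1 Hz, by 0.33 ± 0.12 (SE, adjusted p = 0.0328 in edgeR).

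The c-ring, which turns as protons pass, is built from 1 mature protein that 3 genes encode, and all 3 rose at 4 Hz. Atp5g2 (ENSMUSG00000062683, chromosome 15, 102571295 to 102580787, 5 exons) was at 109.9, 127, and 149 CPM in control, 145, 187, and 247 CPM at 1 Hz, 159.6, 183, and 258 CPM at 4 Hz, and 118, 161, and 185 CPM at 10 Hz. It rose by 0.55 ± 0.13 (SE, adjusted p = 0.0027 in edgeR) at 1 Hz and 0.59 ± 0.13 (SE, adjusted p = 0.0012 in edgeR) at 4 Hz. The folds of Atp5g1 and Atp5g3 were 0.44 and 0.43 at 4 Hz (edgeR adjusted p = 0.00463 and 4.5e-06), and Atp5g3 was also called at 10 Hz, by 0.22 ± 0.059 (SE, adjusted p = 0.0254 in edgeR).

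All 4 subunits of the peripheral stalk, which holds the head still, rose at 4 Hz with no overlap of libraries. Atp5pb (ENSMUSG00000000563, chromosome 3, 105849374 to 105867415, 7 exons), subunit b of that stalk, was at 285, 315, and 368 CPM in control, 296, 361, and 366 CPM at 1 Hz, 415, 479, and 499.5 CPM at 4 Hz, and 382, 429, and 468 CPM at 10 Hz. Its 10 Hz libraries too lay above every control library, and it rose by 0.56 ± 0.076 (SE, adjusted p = 4.73e-06 in edgeR) at 4 Hz and by 0.40 ± 0.076 (SE, adjusted p = 0.00266 in edgeR) at 10 Hz, the largest fold among the members called at 10 Hz. At 1 Hz its fold was 0.10 ± 0.076 (SE, adjusted p = 0.324 in edgeR). Atp5h was called at 4 Hz with 0.46 ± 0.069 (SE, adjusted p = 1.5e-05 in edgeR) and at 10 Hz with 0.26 ± 0.069 (SE, adjusted p = 0.028 in edgeR), and Atp5o and Atp5j rose at 4 Hz by 0.45 and 0.38 (edgeR adjusted p = 0.000101 and 0.000843).

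The small membrane subunits, which help ATP synthase form dimers, all rose at 4 Hz, with folds of 0.31 to 0.51 for the 5 genes. Atp5l (ENSMUSG00000038717, chromosome 9, 44800118 to 44832055, 3 exons) was at 117, 128, and 146 CPM in control, 153, 157, and 176 CPM at 1 Hz, 166, 181, and 207 CPM at 4 Hz, and 144, 166, and 178 CPM at 10 Hz. All 1 Hz and all 4 Hz libraries lay above control, and it rose by 0.30 ± 0.075 (SE, adjusted p = 0.00286 in edgeR) at 1 Hz, 0.51 ± 0.075 (SE, adjusted p = 9.45e-06 in edgeR) at 4 Hz, and 0.33 ± 0.075 (SE, adjusted p = 0.0101 in edgeR) at 10 Hz. Atp5j2 (ENSMUSG00000038690, chromosome 5, 145120505 to 145128872, 4 exons) was at 129, 141, and 152 CPM in control, 142, 149, and 179 CPM at 1 Hz, 174, 198, and 229 CPM at 4 Hz, and 149.5, 172, and 202 CPM at 10 Hz. It rose by 0.50 ± 0.084 (SE, adjusted p = 5.81e-05 in edgeR) at 4 Hz and by 0.30 ± 0.084 (SE, adjusted p = 0.0371 in edgeR) at 10 Hz. The call of Atp5j2 at 10 Hz was lost without any of control replicates 2, 5, and 6 or 10 Hz replicates 1, 2, 4, and 6, with log2 fold changes of 0.25 to 0.31 and adjusted p-values of 0.0512 to 0.1. Over all members, 7 were called at 10 Hz, and without control replicate 2 or 10 Hz replicate 6 there were 3 and without 10 Hz replicate 4 there were 4. At 1 Hz, 7 of 11 were called without 1 Hz replicate 6.

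Summed TPM gave the share of each complex in the library, dominated by its most abundant genes. All members together summed to 22467 ± 640.0 TPM in control, 23315 ± 565 TPM at 1 Hz, 25936 ± 891 TPM at 4 Hz, and 23246 ± 659 TPM at 10 Hz (SD, n = 6 each). The 4 Hz libraries, from 24557 to 26962 TPM, lay above every control library, of which the highest was 23414 TPM. Complex III was 1.30 times its control mean at 4 Hz, complex II 1.16 times, complex IV 1.13 times, cytochrome c 1.13 times, and complex V 1.11 times. The ratios at 1 Hz were 1.12 for complex III and 1.00 for complex V, and those at 10 Hz were 1.09 and 1.02. The 4 Hz libraries of complexes III and V were separate from control, at 4805 to 5584 TPM against 3780.5 to 4218 TPM and at 11291 to 12122 TPM against 10174 to 10869 TPM, and those of complexes II and IV overlapped it.

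**Figure D5:**
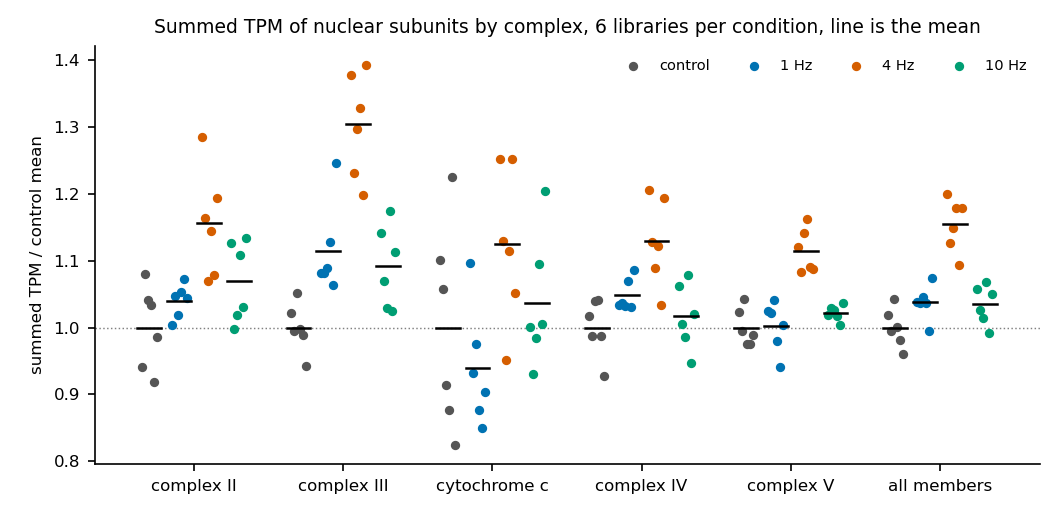
Summed TPM of the nuclear subunits of each complex in each library, divided by the mean of the 6 control libraries, with a line at the mean of each condition. The 4 Hz points of complex III lie highest, at a mean of 1.30, and the 4 Hz points of all members together lie above every control point.

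The frequencies were next compared with each other. From 1 to 4 Hz, 26 members were higher and none lower, against 5.71% of all genes tested called higher and 6.56% lower, and the median log2 difference of the members was 0.31. All 4 Hz libraries lay above all 1 Hz libraries for 14 members (2.37% of all genes) and below them for Sdha alone (3.33%). No member passed 0.5 on the log2 scale (1.59% of all genes called higher), and the largest called differences were those of Cox8b, 0.48 ± 0.14 (SE, adjusted p = 0.0317 in edgeR), and Atp5pb, 0.46 ± 0.076 (SE, adjusted p = 0.000416 in edgeR). The call of Cox8b was lost without any of 1 Hz replicates 1, 2, and 5 or 4 Hz replicates 1, 4, and 6, at 0.37 to 0.46 and adjusted p-values of 0.0579 to 0.0712. The small RNA share overlapped between these frequencies, and with it as a covariate all 26 members stayed called. With offsets for GC content and transcript length 15 were higher and the member median was 0.14, and on the log2(TPM + 1) scale 14 were higher and 1 lower with a median of 0.20, or 6 higher and 1 lower without the filter. Of all 13293 genes with offsets, 810 were higher. On log2(TPM + 1), 230 were higher and 1467 lower of 13627 genes, or 155 and 1058 of 31566 without the filter. Of the 10 fiber markers, 1 (Tnnc2) differed between 1 and 4 Hz.

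From 4 to 10 Hz, 20 members were lower and none higher, against 11.9% of all genes tested called lower and 10.9% higher, with a median log2 difference of -0.20. All 10 Hz libraries lay below all 4 Hz libraries for 5 members (3.54% of all genes). The 4 that passed 0.5 (5.64% of all genes called lower) were Cox8b, Cox6a2, Uqcrq, and Cox7a1, at -0.88 ± 0.15 (SE, adjusted p = 0.000254 in edgeR), -0.79 ± 0.16 (SE, adjusted p = 0.00106 in edgeR), -0.67 ± 0.15 (SE, adjusted p = 0.00251 in edgeR), and -0.61 ± 0.16 (SE, adjusted p = 0.00652 in edgeR). All 20 were also called higher at 4 Hz than in control, as were 36 of all 45 members. Both comparisons use the same 4 Hz libraries, so this overlap is not separate support. The ratios of Cox6a2 to Cox6a1 and of Cox8b to Cox8a were lower at 10 Hz than at 4 Hz by 0.81 and 0.62, with no overlap of libraries (exact permutation p = 0.00216, BH adjusted p = 0.00779 for each), and that of Cox7a1 to Cox7a2 differed by -0.29 (exact permutation p = 0.0216, adjusted p = 0.0354), with overlap. The last call was lost without any of 4 Hz replicates 1, 3, and 6 or 10 Hz replicates 1 to 5, at -0.31 to -0.24 (exact permutation, adjusted p = 0.0506 to 0.0708). With the small RNA share as a covariate no gene of all 13318 was called by edgeR in this comparison, members included, and 10 members were lower among 1005 genes at an unadjusted p below 0.05. The member median in that fit was -0.15. With offsets for GC content and transcript length 33 members and 2192 of 13293 genes were called lower, with a member median of -0.20. Of the 10 fiber markers, 9 were lower at 10 Hz than at 4 Hz, with a median of -0.63, and their part in the result was not tested.

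Between 10 and 1 Hz, 4 members were higher at 10 Hz and 2 lower, against 17.7% and 18.5% of all genes tested. None passed 0.5 on the log2 scale, against 9.45% and 8.49% of all genes. Atp5pb was higher by 0.31 ± 0.076 (SE, adjusted p = 0.00272 in edgeR), Atp5mpl by 0.29 ± 0.095 (SE, adjusted p = 0.0197 in edgeR), Sdhd by 0.18 ± 0.070 (SE, adjusted p = 0.0428 in edgeR), and Cox5a by 0.16 ± 0.057 (SE, adjusted p = 0.0248 in edgeR). Atp5mpl (ENSMUSG00000021290, chromosome 12, 111925397 to 111933510, 4 exons), a small proteolipid of complex V, was at 98.3, 108, and 127 CPM in control, 82.9, 105, and 116 CPM at 1 Hz, 116, 138, and 155 CPM at 4 Hz, and 112, 129, and 134 CPM at 10 Hz, and its call between 10 and 1 Hz was lost without 1 Hz replicate 4 or 5 (0.25 and 0.23, adjusted p = 0.0546 and 0.0631). Cox8b and Sdha were lower at 10 Hz, with log2 differences of -0.40 ± 0.15 (SE, adjusted p = 0.0345 in edgeR) and -0.18 ± 0.058 (SE, adjusted p = 0.0156 in edgeR), and for Sdha all 10 Hz libraries lay below all 1 Hz libraries (7.49% of all genes), while for Atp5pb and Cox5a they lay above (5.67%). The call of Cox8b was lost without any of 1 Hz replicates 3, 4, and 6 or 10 Hz replicates 1, 2, 3, and 5, at -0.40 to -0.33 and adjusted p-values of 0.0555 to 0.0981. Single libraries moved these counts, from 4 higher to 1 without 1 Hz replicate 4 or 5 and to 2 without 10 Hz replicate 1, and from 2 lower to 4 and 5 without 1 Hz replicates 1 and 2 and to 1 without 1 Hz replicate 3, 4, or 6 or 10 Hz replicate 2, 3, or 5. Total count scaling gave 9 higher and 0 lower, limma on log2(TPM + 1) 1 and 3, and offsets for GC content and transcript length 2 and 14. Of all genes, these fits called 2803 higher and 2060 lower of 13318, 1420 and 2158 of 13627, and 2768 and 2626 of 13293. Of the 10 fiber markers, 7 were lower at 10 Hz than at 1 Hz and 0 higher, with a median of -0.59.

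For the isoform ratios between 10 and 1 Hz, Cox6a2 over Cox6a1 differed by -0.37 (exact permutation p = 0.0152, adjusted p = 0.0303), Cox7a1 over Cox7a2 by -0.32 (exact permutation p = 0.0303, adjusted p = 0.0455), and Cox8b over Cox8a by -0.16 (exact permutation p = 0.242, adjusted p = 0.261). The call of the first pair was lost without any of 10 Hz replicates 1, 3, 4, 5, and 6 (-0.38 to -0.35, exact permutation, adjusted p = 0.0584 to 0.0649), and that of the second without any 10 Hz replicate or 1 Hz replicate 1, 3, 4, or 6 (-0.34 to -0.23, exact permutation, adjusted p = 0.0519 to 0.0899). Between 4 and 1 Hz, Cox8b over Cox8a was higher at 4 Hz by 0.46 (exact permutation p = 0.00649, adjusted p = 0.0146), and the differences of the other pairs were 0.44 (exact permutation p = 0.0433, adjusted p = 0.0599) for Cox6a2 and -0.029 (exact permutation p = 0.861, adjusted p = 0.861) for Cox7a1. The difference for Cox6a2 was past the threshold without 1 Hz replicate 6 (0.53, exact permutation, adjusted p = 0.0422) or 4 Hz replicate 2 (0.57, exact permutation, adjusted p = 0.026).

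The members shared features that the rule did not use. Their median transcript length was 1251 bases, against 3231 bases for all genes tested, and 19 members had transcripts under 1000 bases. At 4 Hz, the 1133 tested genes with transcripts under 1000 bases had a median log2 fold change of 0.19 and the 12160 longer ones of -0.03, and the 19 short members had 0.44 and the 26 longer members 0.43. At 10 Hz over control the short genes had 0.14 and the short members 0.22, and between 10 and 1 Hz the short genes, at 0.15, lay above the short members, at 0.048. The median GC content of member transcripts was 50.8% and that of all genes tested 50.3%. Of the members, 5 lay on chromosome 7, among them the 3 muscle isoforms.

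The rest of the pathway was followed in lists of assembly factors and mitochondrially encoded subunits. Of 49 assembly factors tested, which insert cofactors or guide the building of complexes II to V, 15 were higher and 1 lower at 4 Hz, 7 higher and 5 lower at 1 Hz, and 5 higher and 0 lower at 10 Hz, and their median log2 fold change was 0.19, -0.04, and 0.17. The shares of all genes called higher and lower were 19.2% and 20.2% at 4 Hz, 18.1% and 17.3% at 1 Hz, and 2.67% and 2.22% at 10 Hz. The largest rises at 4 Hz were those of Sdhaf3, a factor of complex II, by 0.92 ± 0.17 (SE, adjusted p = 0.000123), and Pet100, a factor of complex IV, by 0.77 ± 0.12 (SE, adjusted p = 1.4e-05) in edgeR, and the fall was that of Coa7, -0.31 ± 0.12 (SE, adjusted p = 0.038). At 1 Hz, Sdhaf3 and Lrpprc, which stabilizes mitochondrial mRNA, rose by 0.53 ± 0.17 (SE, adjusted p = 0.0185) and 0.45 ± 0.11 (SE, adjusted p = 0.00167), and Fmc1 and Tmem177 fell, at -0.41 ± 0.16 (SE, adjusted p = 0.0462) and -0.36 ± 0.14 (SE, adjusted p = 0.047). At 10 Hz, Pet100 and Coa3 rose by 0.48 ± 0.12 (SE, adjusted p = 0.017) and 0.47 ± 0.10 (SE, adjusted p = 0.00691). From 1 to 4 Hz, 15 of the 49 were higher and none lower (5.71% and 6.56% of all genes), led by Coa3 at 0.53 ± 0.10 (SE, adjusted p = 0.00122) and Tmem70 at 0.50 ± 0.11 (SE, adjusted p = 0.0043). Their summed level was 2897 to 3251 TPM in control and 3220.4 to 3394 TPM at 4 Hz.

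Between 10 and 1 Hz, 11 assembly factors were higher and 2 lower at 10 Hz (17.7% and 18.5% of all genes), led by Tmem70 at 0.58 ± 0.11 (SE, adjusted p = 0.000257) and Tmem177 at 0.53 ± 0.14 (SE, adjusted p = 0.00387) and by Lrpprc at -0.34 ± 0.10 (SE, adjusted p = 0.0129) and Cox10 at -0.33 ± 0.12 (SE, adjusted p = 0.0283). From 4 to 10 Hz, 1 was higher and 7 lower (10.9% and 11.9% of all genes), with Coa7 at 0.33 ± 0.12 (SE, adjusted p = 0.0408) and with Sdhaf3 at -0.50 ± 0.16 (SE, adjusted p = 0.0236) and Atpaf1 at -0.49 ± 0.11 (SE, adjusted p = 0.00245) as the largest falls.

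The 6 subunits of complexes III, IV, and V that mitochondrial DNA encodes had a summed level of 24468 to 41407 TPM in control, 17949 to 32953 TPM at 1 Hz, 19855 to 56358 TPM at 4 Hz, and 25237 to 61876 TPM at 10 Hz. Of these, 0 were higher and 1 lower at 1 Hz (18.1% and 17.3% of all genes), 2 higher at 4 Hz (19.2%), and 1 higher at 10 Hz (2.67%). At 4 Hz mt-Cytb, the cytochrome b of complex III, rose by 0.74 ± 0.19 (SE, adjusted p = 0.00292) and mt-Co1, the catalytic subunit of complex IV, by 0.50 ± 0.19 (SE, adjusted p = 0.0414). At 1 Hz mt-Co2 fell, at -0.66 ± 0.24 (SE, adjusted p = 0.0308), and at 10 Hz mt-Cytb rose by 0.64 ± 0.19 (SE, adjusted p = 0.0485). The median log2 fold change of the 6 was -0.33 at 1 Hz, 0.29 at 4 Hz, and 0.44 at 10 Hz, beside 0.13, 0.44, and 0.21 for the 45 nuclear members. Between 4 and 1 Hz, 2 of the 6 were higher at 4 Hz (5.71% of all genes), mt-Co1 by 0.80 ± 0.19 (SE, adjusted p = 0.00809 in edgeR) and mt-Cytb by 0.63 ± 0.19 (SE, adjusted p = 0.0281 in edgeR). Between 10 and 1 Hz, 4 were higher at 10 Hz (17.7% of all genes), led by mt-Co2 at 1.02 ± 0.24 (SE, adjusted p = 0.00164 in edgeR) and mt-Co1 at 0.82 ± 0.19 (SE, adjusted p = 0.00171 in edgeR). Between 10 and 4 Hz none was called.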

How the data were processed

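RNA was measured in 24 libraries of stimulated and unstimulated 2D muscle, 6 for each of 4 conditions given by the labels. The authors deposited estimated counts and TPM per gene, made with STAR and Salmon against GRCm39. The notes also name BWA 0.7.12-r1039, bedtools 2.25.0, mm10, and hg19. The Ensembl release and strand setting are not given in the sources used here, and reads of overlapping or antisense genes could not be told apart. The study prepared libraries by poly(A) selection and ribodepleted some of low input, which it did not name.

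Estimated counts were rounded, filtered with filterByExpr, scaled by TMM, and fitted for all 24 libraries with condition only in edgeR 4.0.16 (R 4.3.3, glmQLFTest). SE was the absolute log2 fold change divided by the square root of F. CPM used TMM-scaled library sizes, and the isoform ratios had 0.5 added to each CPM. Alternatives were DESeq2 1.42.0 and its size factors, total count scaling, no filter on low counts, limma 3.58.1 on log2(TPM + 1) and log2(TPM + 0.1), the 12 compared libraries only, a replicate block, the small RNA share (27 symbols listed) as a covariate, offsets for GC content and transcript length, and leaving out each library. In counts simulated for 1 Hz against control over 13318 genes, edgeR recovered 81% of genes changed by 1 and 55% of those changed by 0.5 on the log2 scale.

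Members and lists were chosen with earlier results of these data known. Values by library were given for the 3 muscle isoforms and partners, Cox4i1, Cox4i2, Sdha, Uqcrc1, and the 4 members of largest change each way past the test against control, or 2 each way between frequencies. Others were given by counts, ranges, or folds, and lists by counts and the 2 largest changes each way. Positions are from GENCODE M39 in GRCm39.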

Additional observations from a re-analysis of the deposited data

Results flagged for a closer look

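Among 104 groups of 6 libraries tested for a library far from the others with Dixon's criterion, 4 met it, and chance gives about 1 in 20. Sdha in 4 Hz replicate 5 was at 179.6 CPM, below the other 4 Hz libraries at 196 to 205 CPM. Atp5l in 1 Hz replicate 6 was at 176 CPM, above the others at 153 to 159.8 CPM. The log2 ratio of Cox8b to Cox8a in 10 Hz replicate 1 was -2.58, below the others at -2.29 to -2.15. The summed TPM of complex III in 1 Hz replicate 6 was 4994 TPM, above the others at 4266 to 4521 TPM.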

How the results depend on the processing

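Of 25 log2 fold changes of named members past the test, 489 of 575 alternative values kept direction and call, 85 kept the direction only, and 1 reversed. For 18 not past the test, 366 of 414 alternative values kept direction and call, 18 gained a call, and 30 reversed. All 25 kept both with DESeq2, its size factors, and the replicate block. The 12 isoform ratio differences past the test lost their call under the block (values below). Their block test has a smallest p of 0.0312 before adjustment over 18 tests. A ratio could thus pass only if most of the 18 reached it. Depth was 4.09 to 15.2 M counts per library, and its effect on the calls was not tested. The cause of the changes below was not tested. Members called higher over control at 1, 4, and 10 Hz numbered 11, 36, and 7. With a log2 fold change above 0.5 they numbered 4, 13, and 0. With total count scaling 7 were higher and 2 lower at 1 Hz and 1 was lower at 4 Hz. Of all genes, 1785 were then higher and 3108 lower at 1 Hz, and 3776 were lower at 4 Hz. Without the filter on low counts 3, and with DESeq2 13, were higher at 10 Hz, and with the 12 compared libraries 4. All genes called higher there numbered 314, 533, and 176, beside 356 in the main fit. On log2(TPM + 1) and log2(TPM + 0.1) alike, 6 were higher and 3 lower at 1 Hz, 3 lower at 4 Hz, and 0 higher and 1 lower at 10 Hz. On log2(TPM + 1) without the filter these were 5 and 2 at 1 Hz, 23 and 2 at 4 Hz, and 0 and 1 at 10 Hz. With the small RNA covariate 0 were higher at 1 Hz and 11 at 4 Hz. With GC and length offsets 26 were higher at 1 Hz and 1 was lower at 4 Hz and at 10 Hz. Of the 7 members called at 10 Hz, only Atp5pb and Uqcrc2 stayed called with offsets. All genes called higher at 1 Hz numbered 2414 in the main fit and 2830 with offsets. With offsets 645 genes were higher at 10 Hz, and 3225 were lower at 4 Hz and 522 at 10 Hz.

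From 1 to 4 Hz (26 higher, 0 lower), the fold limit left 0, both TPM scales gave 14 higher and 1 lower, TPM without the filter 6 and 1, GC and length offsets 15 higher, and DESeq2 1 lower. Between 10 and 1 Hz (4 higher, 2 lower), the fold limit left 0 and 0, total count scaling gave 9 and 0, no filter 2 higher, both TPM scales 1 higher, TPM without the filter 1 and 1, the small RNA covariate 0 and 0, and the offsets 2 and 14. From 4 to 10 Hz (20 lower), the fold limit left 4, total count scaling 10, no filter 12, both TPM scales 11, TPM without the filter 9, the 12 libraries 13, the covariate 0, and the offsets 33. All genes called lower there numbered 1579 in the main fit and 751 with the fold limit. Total count scaling gave 1124, no filter 1379, log2(TPM + 1) 698, TPM without the filter 470, the 12 libraries 1272, and the offsets 2192.

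Reversed log2 differences were those of Cox6a1 at 1 Hz (-0.0031 with total counts, -0.020 on all TPM scales, -0.0077 with offsets), at 4 Hz (-0.036, -0.17, and -0.17), and at 10 Hz (-0.054 on all TPM scales and -0.052 with offsets), none of them called. Cox7a1 at 10 Hz was -0.0054 on all TPM scales and -0.018 with offsets. Cox8a at 10 Hz was -0.10 on all TPM scales and with offsets, and ranged from -0.021 to 0.11 with each library left out (-0.021 and -0.010 without 10 Hz replicates 4 and 1). Cox8b between 10 and 1 Hz was 0.0078 with the covariate. Sdha was -0.020 at 1 Hz on all TPM scales and, at 4 Hz, 0.019 without the filter, 0.034 with offsets, and -0.037 to 0.0095 with each library left out (0.0095 without 4 Hz replicate 5).

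Replicate numbers did not pair the libraries by the limit of 0.1 set on their correlation. The correlation of same-numbered libraries was -0.18 to 0.36 (median 0.02), over 0.1 in 10 of 36 pairs. That of other-numbered libraries was -0.32 to 0.36 (median -0.01), over 0.1 in 49 of 180 pairs. Of 24 libraries, 10 correlated best with their own number, and how many would by chance was not tested. The replicate block gave 12, 37, and 10 members higher over control at 1, 4, and 10 Hz, 29 higher from 1 to 4 Hz, 6 higher and 2 lower between 10 and 1 Hz, and 21 lower from 4 to 10 Hz. For the isoform ratios the replicate block was an exact test by sign flips, whose smallest p for 6 pairs is 0.0312, and no ratio passed after adjustment. Because of that floor, these lost calls cannot show whether the ratios depend on pairing. Cox6a2 over Cox6a1 was 0.53, 0.97, and -0.81 at 1 Hz, 4 Hz, and 10 against 4 Hz (exact, adjusted p = 0.0625), 0.16 at 10 Hz (exact, 0.0865), and -0.37 at 10 against 1 Hz (exact, 0.105). Under the block, Cox7a1 over Cox7a2 was -0.32 and -0.29 at 10 against 1 and 4 Hz (exact, 0.0625), and Cox8b over Cox8a was 0.98 and -0.62 at 4 Hz and 10 against 4 Hz (exact, 0.0625) and 0.52, 0.36, and 0.46 at 1 Hz, 10 Hz, and 4 against 1 Hz (exact, 0.0865).

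Leaving out each library gave 7 to 12, 35 to 38, and 3 to 10 members higher at 1, 4, and 10 Hz, 21 to 28 higher from 1 to 4 Hz, 1 to 5 higher and 1 to 5 lower between 10 and 1 Hz, and 14 to 24 lower from 4 to 10 Hz. The ratio of Cox6a2 ranged from 0.12 to 0.18 at 10 Hz, 0.36 to 0.57 at 4 against 1 Hz, and -0.44 to -0.29 at 10 against 1 Hz. That of Cox7a1 ranged from 0.15 to 0.28 at 4 Hz, -0.11 to 0.056 at 4 against 1 Hz (0.016, 0.056, 0.00086, and 0.047 without 1 Hz replicates 4 and 6 and 4 Hz replicates 4 and 5), -0.40 to -0.23 at 10 against 1 Hz, and -0.37 to -0.24 at 10 against 4 Hz.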
